A study of Mus musculus with 6 samples.

Results

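The genes described here are 9 interferon-stimulated genes, Isg15, Usp18, Rsad2, Ifit1, Ifit2, Ifit3, Irf7, Irf9 and Stat2, chosen by symbol from the 15280 genes of the deposited RNA-Seq table, which lists all 9. The table holds 6 libraries from 3 parous BK5.ATF3 transgenic females, in which the bovine cytokeratin-5 (BK5) promoter drives ATF3 in basal epithelial cells. Tumors arise in these females at 6 to 12 months. One group is a single mammary tumor from each mouse, taken when it was 1.5 cm long (libraries T11035, T11640 and T9232), and the other is an adjacent normal mammary gland of the same mouse (M11035, M11640 and M9232). The glands carry the transgene as well, so the comparison is of tumor with gland within transgenic animals (n = 3 mice per tissue) and has no non-transgenic tissue. Values are in CPM, the fragments on a gene scaled to the size of the library, and triplets of values are in the order M11035, M11640 and M9232 or T11035, T11640 and T9232 throughout. Mice are named by their tumors.

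Type I interferons are secreted by cells that sense foreign or misplaced nucleic acid, and they bind a receptor made of Ifnar1 and Ifnar2. The kinases Jak1 and Tyk2 then phosphorylate Stat proteins, among them Stat2, which with Irf9 is part of the factor ISGF3. ISGF3 binds the interferon-stimulated response element (ISRE) in the promoters of antiviral genes, and Stat2, Irf9 and Irf7 belong to the genes it induces as well as to the machinery. In tumors such genes are known as a mark of interferon acting on the malignant cells, the stroma or the immune cells, and a bulk library does not separate these.

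The promoters of 5 genes are shown because they hold the core of the ISRE, the element that ISGF3 binds. RefSeq promoter windows (GRCm38.p6, from 250 bases before to 50 bases after the transcription start) were found for 8 of the 9 genes, and both strands were searched for the core GAAANNGAAA, in which N is any base. In the stretches below, 5′ to 3′ on the strand of the gene, capitals mark the core or its reverse complement.
Isg15, chr4:156200849-156200998, minus strand: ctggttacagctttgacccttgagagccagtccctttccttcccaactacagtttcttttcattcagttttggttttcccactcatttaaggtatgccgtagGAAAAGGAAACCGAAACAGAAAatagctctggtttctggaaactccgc
Rsad2, chr12:26456483-26456632, minus strand: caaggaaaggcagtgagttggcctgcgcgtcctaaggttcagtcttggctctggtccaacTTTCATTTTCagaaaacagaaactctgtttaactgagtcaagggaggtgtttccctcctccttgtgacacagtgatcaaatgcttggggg
Ifit1, chr19:34640709-34640858, plus strand: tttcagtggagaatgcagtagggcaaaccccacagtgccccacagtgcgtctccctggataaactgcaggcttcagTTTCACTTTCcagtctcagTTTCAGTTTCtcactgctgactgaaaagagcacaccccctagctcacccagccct
Ifit3, chr19:34583349-34583498, plus strand: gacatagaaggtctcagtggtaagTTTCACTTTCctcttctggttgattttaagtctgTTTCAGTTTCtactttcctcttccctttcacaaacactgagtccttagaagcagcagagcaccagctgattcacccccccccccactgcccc
Stat2, chr10:128270248-128270397, plus strand: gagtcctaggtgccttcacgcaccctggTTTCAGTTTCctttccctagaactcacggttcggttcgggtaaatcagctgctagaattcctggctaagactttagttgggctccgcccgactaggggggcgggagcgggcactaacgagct
With the start as base 0, the Isg15 window held 3 overlapping cores that began at -78, -72 and -66. Ifit1 had cores at -104 and -85, Ifit3 at -156 and -122, Rsad2 at -120 and Stat2 at -222. The windows of Ifit2, Irf7 and Irf9 did not hold these letters, which says nothing about other forms of the element. The core was in 3.44% of all 32851 promoter windows of the same length. The core of the gamma-activated site (GAS), TTCNNNGAA, to which Stat dimers bind, was in 8.30% of all windows and, among these genes, in Ifit2 only, at -241. Usp18 had no entry in the promoter table.

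**Figure D1:**
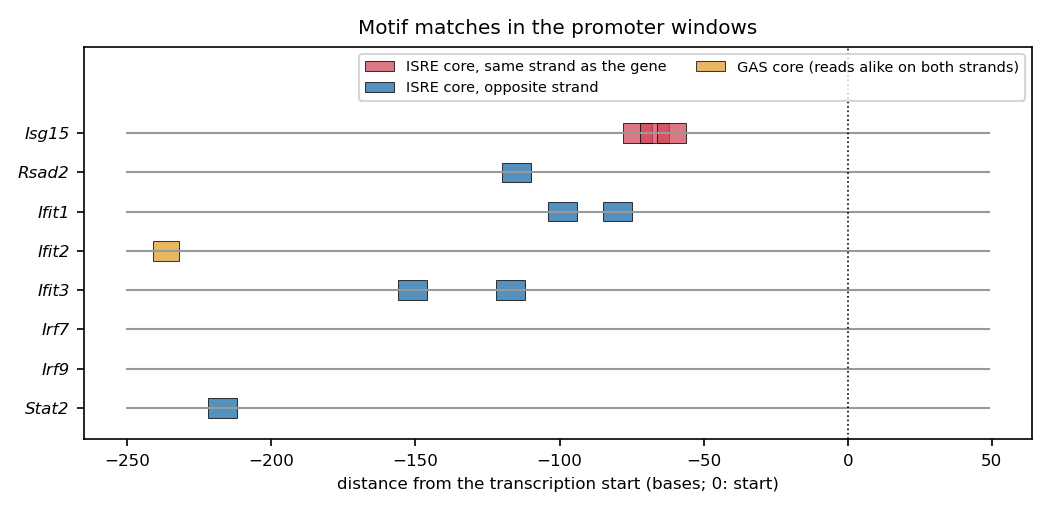
Matches to the ISRE core and the GAS core along the promoter windows of the 8 genes with an entry, plotted by distance from the transcription start in bases. The Isg15 matches overlap between -78 and -57, those of Rsad2, Ifit1 and Ifit3 start between -156 and -85, and Ifit2, Irf7 and Irf9 have no ISRE core.

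Depth ranged from 4750989 to 7806908 fragments on genes, so that 3 fragments, taken as the floor, correspond to 0.393 to 0.610 CPM. All 54 values of the 9 genes were above it. Intervals and floors of this kind cover counting error only. The tissues differed in their cells. Summed over marker lists, 8 epithelial genes went from 211 to 468 CPM in glands to 1967 to 2566 CPM in tumors, with 6 of 8 called higher. In contrast, 8 adipocyte genes went from 6157 to 11616 CPM to 250.5 to 404 CPM, with 8 of 8 called lower. Of all genes, 14.5% were called higher and 13.7% lower. Atf3, the gene the transgene carries, stood at 4.47, 8.09 and 22.6 CPM in glands and 13.4, 18.3 and 19.3 CPM in tumors and was not called (log2 fold change 0.80 ± 0.49 SE, adjusted p = 0.223 by limma), with tumors and glands overlapping. The sources used here do not say whether transcripts of the transgene are counted under Atf3, so these values do not give its level. In bulk tissue, fewer cells of a type and less RNA per cell cannot be told apart.

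All 9 genes were higher in the tumor than in the gland of each of the 3 mice. A gene was called when limma gave an adjusted p (Benjamini-Hochberg, over all genes) of at most 0.05 and a fold change of at least 2. By this rule 7 of 9 genes rose (Isg15, Ifit1, Irf7, Usp18, Rsad2, Ifit3 and Ifit2) and 0 fell, where 14.5% of all genes were called higher and 13.7% lower (28.2% in either direction). Stat2 and Irf9, parts of ISGF3, were not called. The median log2 fold change over the 9 genes was 1.86, against -0.0028 over all genes. By mouse, the median difference was 2.34 in the mouse of T11035, 1.47 in that of T11640 and 1.61 in that of T9232. For 8 of 9 genes every tumor lay above every gland, as it did for 27.6% of all genes. These calls, which need both limits, did not change under any of the 14 other settings that were run.

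**Figure D2:**
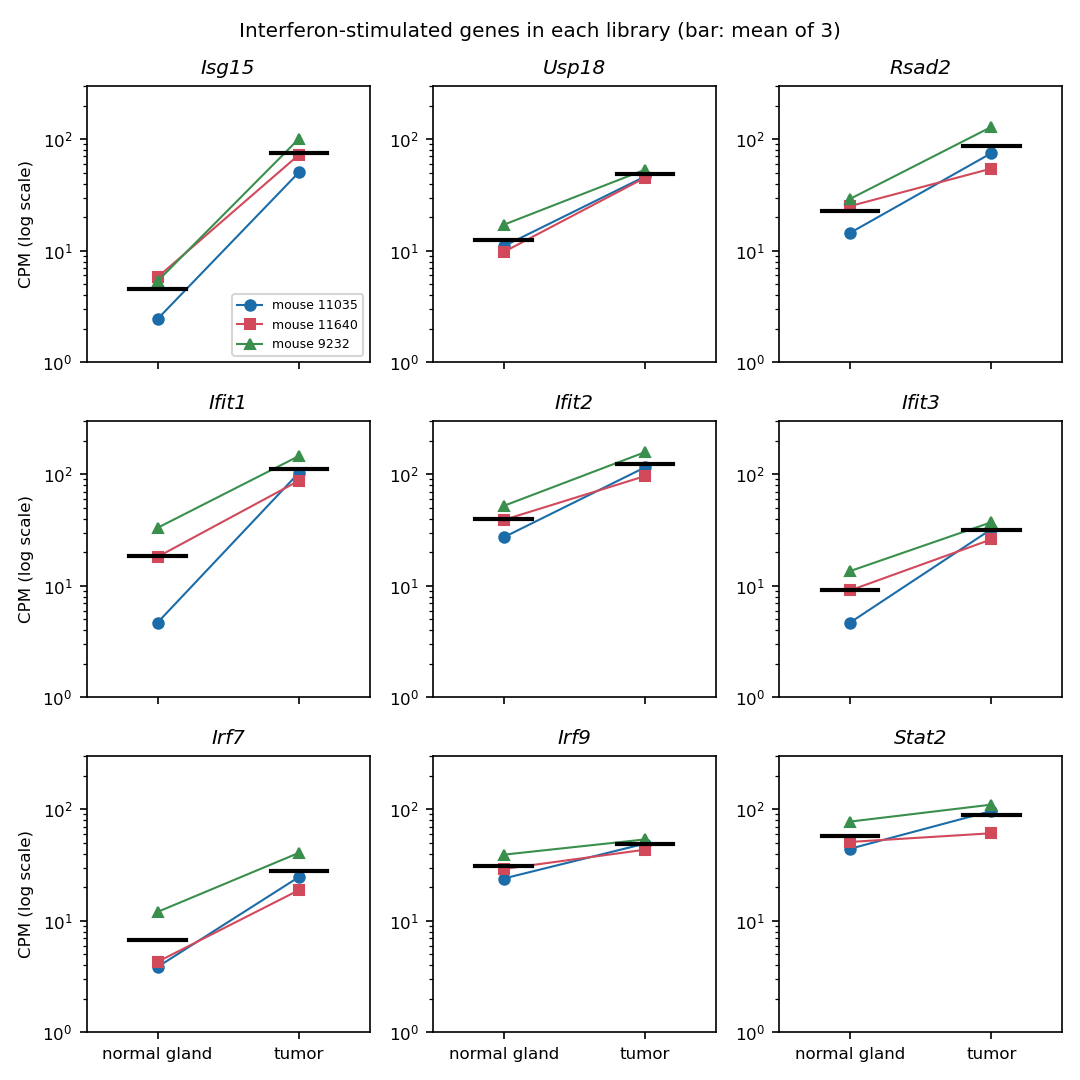
CPM (log scale) of the 9 genes in each library, with lines joining the gland and the tumor of a mouse and bars at the mean of 3. Every line goes up, Isg15 from between 2.44 and 5.78 CPM to between 50.4 and 101 CPM, and only for Stat2 do the tissues overlap.

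Isg15 encodes a ubiquitin-like protein that is joined to other proteins and is also secreted. It lies on chromosome 4 (mm9, 155573533 to 155574927, minus strand). Normal glands held 2.44, 5.78 and 5.33 CPM and tumors 50.4, 72.5 and 101 CPM. No gland came near any tumor, and Isg15 had the largest change of the 9 genes, 15.2-fold (log2 fold change 3.92 ± 0.35 SE, adjusted p = 5.6e-05, limma). In gland M11035 the level rested on 12 fragments.

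Usp18 encodes the protease that removes ISG15 from proteins and that also blocks signaling at Ifnar2, so it acts as a brake on the pathway (chromosome 6, 121195924 to 121220934, plus strand). It stood at 11.0, 9.75 and 17.1 CPM in glands and at 46.3, 45.2 and 53.3 CPM in tumors. The tumors were close to each other and all above the glands (3.82-fold, log2 fold change 1.93 ± 0.23, adjusted p = 2.67e-04, limma). Of the 4 enzymes listed for ISG15 conjugation, only the E2 enzyme Ube2l6 was called (11.2, 22.1 and 23.0 CPM in glands and 37.8, 34.9 and 49.6 CPM in tumors, log2 fold change 1.15, adjusted p = 0.0127 by limma). Called higher was thus 25.0% of this short list, against 14.5% of all genes. The Ube2l6 call was lost without gland M11035 (log2 fold change 0.82) and without tumor T9232 (1.001), which leaves 0 of 4 called. The E1 enzyme Uba7 had a log2 fold change of -0.65, the ligase Herc6 0.29 and the ligase Trim25 0.58. The enzyme that starts conjugation was thus below the glands in all 3 tumors, at 13.4 to 18.3 CPM against 20.2 to 28.04 CPM, by less than the 2-fold limit.

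Rsad2 encodes viperin, an enzyme of the endoplasmic reticulum that makes a chain-terminating nucleotide (chromosome 12, 27127618 to 27141317, minus strand). Glands had 14.4, 25.1 and 29.1 CPM and tumors 74.99, 54.5 and 129 CPM. The lowest tumor was above the highest gland (3.62-fold, log2 fold change 1.86 ± 0.35, adjusted p = 0.00324, limma). Cmpk2, the nucleotide kinase gene that starts 12.8 kb away on the other strand and is also interferon-induced, had 11.0, 28.4 and 42.5 CPM in glands and 20.3, 14.4 and 27.9 CPM in tumors and was not called (log2 fold change -0.23 ± 0.45, adjusted p = 0.714, limma). It was higher in the tumor than in the gland in the mouse of T11035 only. The difference between these neighbors was not tested, and Cmpk2 was singled out after its values were seen.

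Ifit1, Ifit2 and Ifit3 encode tetratricopeptide proteins that bind foreign RNA or support its recognition, and they lie within 99.3 kb of chromosome 19 on the plus strand (Ifit2 at 34625184 to 34650909, Ifit3 at 34658021 to 34663221 and Ifit1 at 34715361 to 34724499). Ifit1 had 4.68, 18.2 and 33.1 CPM in glands and 103, 87.5 and 146 CPM in tumors. On the log2 scale the glands spread more than for any other of the 9 genes, but each was below every tumor (7.43-fold, log2 fold change 2.89 ± 0.58, adjusted p = 0.00445, limma). The size of this change hung on single glands, with 4.40-fold (adjusted p = 0.00118) without M11035 and 11.2-fold (adjusted p = 6.75e-04) without M9232, and the adjusted p reached 0.0259 at most over the alternatives.

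Ifit2 had 27.2, 39.0 and 52.1 CPM in glands and 116, 96.5 and 158 CPM in tumors, 3.14-fold higher (log2 fold change 1.65 ± 0.27, adjusted p = 0.00141, limma). Ifit3 had 4.68, 9.08 and 13.5 CPM in glands and 32.2, 26.1 and 37.2 CPM in tumors, 3.61-fold higher (1.85 ± 0.35, adjusted p = 0.00312, limma). Neither gene overlapped between tissues. The Ifit3 value is uncertain, because its transcript is 97.8% identical over 1700 bases to that of its neighbor I830012O16Rik (now Ifit3b). Reads from such copies cannot always be told apart and may be misplaced or left uncounted. That copy had 1.83, 5.78 and 9.99 CPM in glands and 13.2, 8.78 and 14.8 CPM in tumors and was not called (log2 fold change 1.22, adjusted p = 0.082, limma), with tumor T11640 below gland M9232. Ifit1 had no such copy, its closest match being 76.0% identical.

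Irf7 encodes the factor that amplifies the transcription of type I interferons (chromosome 7, 148448605 to 148452380, minus strand). It had 3.86, 4.29 and 12.0 CPM in glands and 24.7, 18.9 and 40.8 CPM in tumors. The tumors lay above the glands with no overlap (4.25-fold, log2 fold change 2.09 ± 0.43, adjusted p = 0.00526, limma). Gland M9232 was well above the other two glands. Its exons share 45 bases with Phrf1 on the opposite strand, and the sources used here do not say that reads were counted by strand, so reads from these bases cannot be told apart.

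Irf9, the DNA-binding part of ISGF3 (chromosome 14, 56222408 to 56228867, plus strand), had 24.0, 29.2 and 39.3 CPM in glands and 49.3, 43.5 and 53.8 CPM in tumors. Every tumor was above every gland, but the change was below 2-fold (1.60-fold, log2 fold change 0.68 ± 0.21, adjusted p = 0.0289, limma), so that Irf9 was not called. Its exons share 123 bases with Rnf31 on the same strand. Stat2 (chromosome 10, 127707629 to 127729905, plus strand) had 44.3, 51.0 and 77.7 CPM in glands and 96.6, 61.1 and 110.3 CPM in tumors, and tumor T11640 lay below gland M9232. Its log2 fold change of 0.62 ± 0.27 did not pass the test (adjusted p = 0.1001, limma). With the mouse as a block it passed (adjusted p = 0.0409) while staying below 2-fold, as Irf9 did, and over all alternatives its adjusted p ran from 0.0314 to 0.287. That of Irf9 ran from 0.00967 to 0.0946.

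Levels can be compared between genes only per length. The lengths used were the exon bases of a gene in GENCODE vM1, whereas fragments had been counted on RefSeq genes. Where these differ, the values per kilobase and the order are inexact. Per kilobase of exon, the glands held most of Stat2, 13.1 CPM per kb, and least of Irf7, 2.23 CPM per kb, with Ifit2 at 10.05, Usp18 at 7.12, Ifit1 at 7.02, Isg15 at 5.98, Irf9 at 5.72, Rsad2 at 5.29 and Ifit3 at 5.22 CPM per kb between them. In that order each gene overlapped the next over the 3 glands. In tumors Isg15 came first at 98.7 CPM per kb and was clear of Ifit1 at 42.2 CPM per kb. Ifit2 followed at 31.4, Usp18 at 27.3, Stat2 at 20.3, Rsad2 at 19.9, Ifit3 at 18.2, Irf7 at 9.30 and Irf9 at 9.07 CPM per kb. Besides Isg15, only Usp18 and Ifit3 were clear of the gene after them. By these lengths Stat2 went from the first place in glands to the fifth in tumors, and Isg15 from the fifth to the first.

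Upstream of these genes, 1 of 21 listed interferon genes was in the table. This was Ifnk, which encodes interferon kappa, a type I interferon made by keratinocytes. It had 1.22, 2.31 and 3.28 CPM in glands and 9.12, 6.29 and 18.9 CPM in tumors. It rose 4.11-fold (log2 fold change 2.04 ± 0.44, adjusted p = 0.00618, limma), and tumor T9232 had the most. The gland levels rested on only 6, 14 and 24 fragments, so the size of the rise is imprecise. The part of Ifnk in the rise of the 9 genes was not tested. Genes with fewer than 10 fragments in all libraries together were removed by the authors. Ifnb1, the Ifna genes, the lambda interferons and Ifng were looked for and were not in the table, so no level can be given for them.

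Of the 10 receptor and JAK-STAT genes described here, 0 were called in either direction, against 28.2% of all genes. However, 5 of the 10 passed the limma test and missed only the 2-fold limit. Ifnar1, a chain of the type I receptor, had a log2 fold change of 0.38 ± 0.14 and an adjusted p of 0.0555 (limma), with every tumor above every gland. Its partner Ifnar2 had 92.7, 107 and 122 CPM in glands and 60.1, 66.3 and 86.5 CPM in tumors (log2 fold change -0.60, adjusted p = 0.0286 by limma). The kinases Jak1 and Tyk2 each had a log2 fold change of -0.67 (adjusted p = 0.0081 and 0.0355) and Jak2 of 0.49 (adjusted p = 0.015). These were past the limma test but below the 2-fold limit, as was the interferon gamma receptor Ifngr1 (-0.63, adjusted p = 0.0272). Ifnar2 shares 569 exon bases with Il10rb, so the values of these genes are uncertain.

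Stat3, which mainly serves other cytokines, had a log2 fold change of 0.22, and the receptor chains had values near it, Ifngr2 at 0.41, Il28ra (lambda) at 0.38 and Il10rb at 0.16. Il28ra and Il10rb changed sign when a library was left out. The log2 fold changes of the 10 genes thus lay between -0.67 and 0.49. Their difference from those of the 9 genes was not tested.

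**Figure D3:**
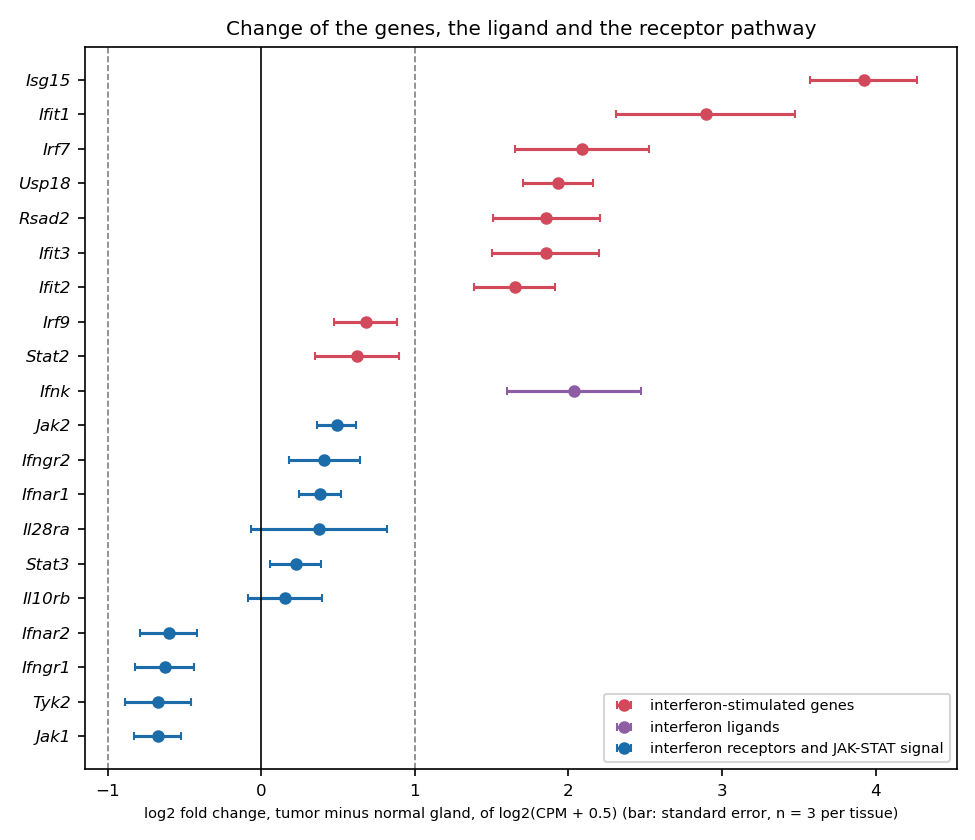
Log2 fold change between tumors and normal glands (points, with standard errors, n = 3 per tissue) of the 9 genes, the ligand Ifnk and the 10 receptor and JAK-STAT genes, with dashed lines at the 2-fold limits. The 7 called genes lie between 1.65 and 3.92, Irf9 and Stat2 at 0.68 and 0.62, and the receptor pathway between -0.67 and 0.49.

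Of the 6 other interferon regulatory factors described here, 0 were called higher and 2 fell. Among all genes 14.5% were called higher and 13.7% lower. The lymphoid and myeloid factors Irf4 and Irf8 fell by 3.21 and 1.63 on the log2 scale (adjusted p = 1.67e-05 and 0.00199, limma). Irf4 had 71.7 to 108 CPM in glands and 6.88 to 9.57 CPM in tumors. Beside these, 8 of 8 B cell markers were called lower (summed level 188 to 496 CPM in glands and 11.8 to 12.9 CPM in tumors), with Cd79a and Pax5 no higher than the floor in any of the 3 tumors, and so were 10 of 10 T and NK cell markers (214 to 525 CPM and 31.1 to 53.3 CPM). Their part in the fall of Irf4 and Irf8 was not tested. Irf1, Irf2, Irf3 and Irf5 were not called, with log2 fold changes from -0.61 to 0.47.

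Sensors of foreign nucleic acid are themselves induced by interferon, and 4 of 16 sensors and adaptors rose while 1 fell. Over all genes 14.5% were called higher and 13.7% lower, and the share of the list was not tested against these. Ifih1 (MDA5) went from 56.7, 81.4 and 115 CPM to 221, 217 and 219 CPM, so that the tumors were nearly equal (log2 fold change 1.43, adjusted p = 0.00157, limma). Dhx58 (LGP2), another RNA helicase, rose by 1.38 on the log2 scale. The DNA sensor E330016A19Rik (Cgas) rose by 1.24 and the Z-nucleic acid sensor Zbp1 by 1.22. The adaptor Mavs, on which MDA5 signals, fell by 1.10 (18.7 to 22.2 CPM in glands and 7.47 to 10.9 CPM in tumors, adjusted p = 0.00316, limma). The Zbp1 call was lost without tumor T9232 (log2 fold change 0.97) and the Mavs call without tumor T11640 (-0.97).

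Of 50 further interferon-induced effectors in the table, 18 rose (36.0% of the list, against 14.5% of all genes) and 1 fell, with 35 of 50 higher in tumors and a median log2 fold change of 0.65. The 4 largest rises belonged to the 2′-5′ oligoadenylate synthetase family, which activates an RNase on sensing double-stranded RNA. Oas1g went from 1.42, 1.65 and 4.92 CPM to 25.7, 19.4 and 28.9 CPM (log2 fold change 3.14, adjusted p = 3.75e-04, limma), and it is uncertain because its transcript is 96.7% identical to that of Oas1a. Oasl2 rose by 2.69, Oas2 by 2.53 and Oas3 by 2.45 on the log2 scale. Oasl2 depended on single glands, with a 6.44-fold change over all glands, 3.65-fold without M11035 and 10.8-fold without M9232, and Oas2 on M9232, with 5.78-fold over all glands and 9.18-fold without it.

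Ifi44, the fifth, had 7.12, 34.0 and 88.9 CPM in glands and 179, 125 and 143 CPM in tumors (log2 fold change 2.36 ± 0.73, adjusted p = 0.03, limma). Its call was lost under 7 of 14 settings, among them leaving out gland M11640 or any 1 of the 3 tumors, and its fold moved from 5.15 to 2.65 without M11035 and to 9.09 without M9232. Epsti1 fell by 1.40 on the log2 scale (51.5 to 85.2 CPM in glands and 22.9 to 31.3 CPM in tumors, adjusted p = 0.00139, limma). The list was therefore mixed, with 31 of 50 genes not called. Its difference from the 9 genes, which were chosen with earlier results of these data known, was not tested. Of the 40 effectors with a promoter entry, the ISRE core was in 6 of 12 that were called higher and in 14 of 28 that were not.

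Genes put by hand on a list of the interferon gamma response, some of which have other inducers, were called in both directions. Of 16 in the table, 2 rose and 3 fell, shares near the 14.5% called higher and 13.7% called lower over all genes, and the median log2 fold change was -0.39. The antigen-presentation regulator Ciita fell by 1.93 (26.9 to 50.4 CPM in glands and 8.99 to 10.05 CPM in tumors) and the GTPase Gbp4 by 1.90 (114 to 183 CPM and 25.2 to 52.7 CPM) on the log2 scale (adjusted p = 3.59e-04 and 9.38e-04, limma). Nos2, the inducible nitric oxide synthase, rose by 2.13 (0.684 to 1.82 CPM in glands and 4.09 to 9.59 CPM in tumors) and the chemokine Cxcl10 by 1.39 (3.80 to 7.93 CPM and 8.91 to 24.0 CPM). Ido1, the tryptophan-degrading enzyme, had 11.4, 1.82 and 2.46 CPM in glands and 1.49, 0 and 0.599 CPM in tumors (log2 fold change -2.07). The Cxcl10 and Ido1 calls were not stable. Cxcl10 was lost without gland M11035, gland M11640, tumor T11035 or tumor T9232. Ido1 was lost without gland M11035, tumor T11640 or tumor T9232, and also with a pseudocount of 0.1 or without the trend. Its log2 fold change was -1.35 without M11035, -3.00 with the pseudocount of 0.1, -2.96 by edgeR and -2.93 by DESeq2. Between 3 genes (without M11035 or without T9232) and 6 genes (without M9232) of the list were called when a library was left out.

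**Figure D4:**
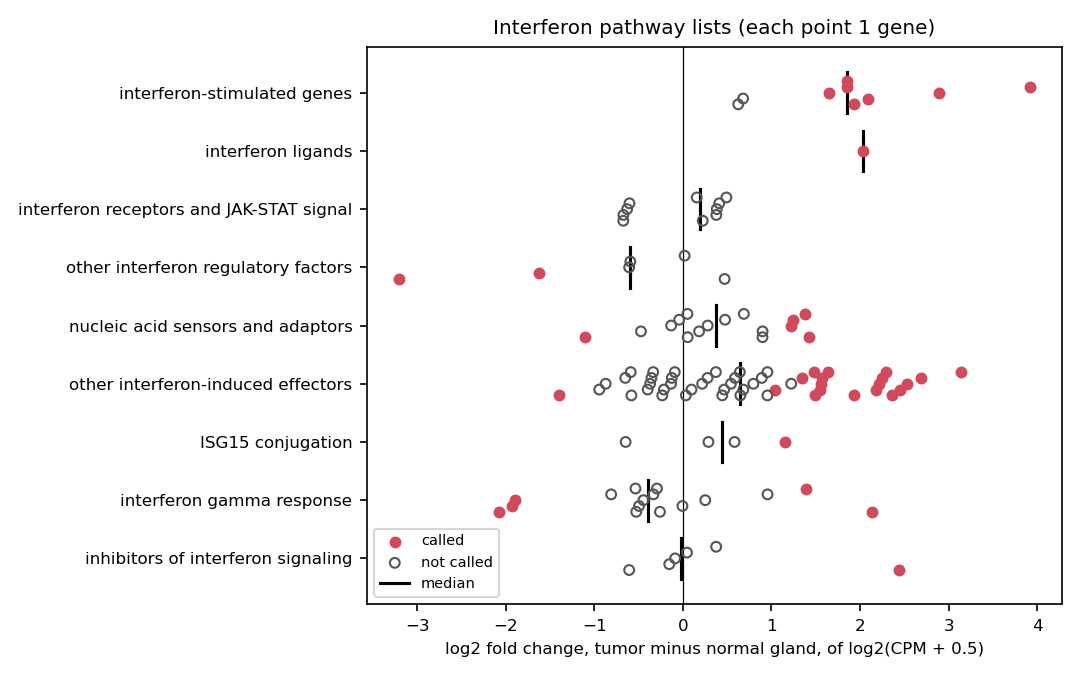
Log2 fold change between tumors and normal glands of each gene in the interferon lists (filled, called; open, not called; bar, median of the list). The 9 genes have a median of 1.86, the 50 other effectors of 0.65 with values from -1.40 to 3.14, and the 16 interferon gamma response genes of -0.39.

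Of 6 inhibitors of the pathway in the table, only Socs3 was called, higher in tumors (16.7% of the list, near the 14.5% of all genes). It had 2.85, 1.82 and 2.46 CPM in glands and 12.1, 15.5 and 17.8 CPM in tumors (log2 fold change 2.44, adjusted p = 1.42e-04, limma), each tumor above each gland. Socs3 is also induced by cytokines that act through Stat3. The phosphatases Ptpn1, Ptpn2, Ptpn6 and Ptpn11 and the ligase Pias1 were between -0.61 and 0.38.

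The cells known to make most type I interferon, plasmacytoid dendritic cells, had lower markers in tumors. Of these markers, 4 of 5 were called lower and 0 higher, where 13.7% of all genes were called lower and 14.5% higher. Their summed level was 56.3 to 135 CPM in glands and 17.7 to 20.4 CPM in tumors, and Cox6a2 was no higher than the floor in any of the 3 tumors. All B cell markers and all T and NK cell markers were called lower too, and whether these falls are separate was not tested. Macrophage markers were called higher for 1 of 10 genes (Fcgr1, log2 fold change 2.88) and lower for 0, with a summed level of 1068 to 3865 CPM in glands and 1195 to 2428 CPM in tumors. Neutrophil markers were called higher for 5 of 7 genes (79.0 to 174 CPM and 830.3 to 1455 CPM). The other 2 were not called, and the lowest log2 fold change was -1.07. Fibroblast markers were called higher for 3 of 6 (669 to 2438 CPM and 5580 to 5987 CPM). Endothelial markers were called lower for 3 of 6 (357 to 486 CPM and 202 to 290 CPM). No marker was at 0 in all libraries of a tissue. The part of each cell type in the rise of the 9 genes was not tested.

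Within each tissue the 9 genes ran together from mouse to mouse. Among glands, M9232 was highest for 8 of 9 genes (Isg15 was highest in M11640) and M11035 lowest for 8 of 9 (Usp18 was lowest in M11640). Among tumors, T9232 was highest for 9 of 9 and T11640 lowest for 8 of 9 (Isg15 was lowest in T11035). The mean deviation of the 9 genes from the tissue mean was -0.60, 0.02 and 0.58 on the log2 scale in glands and -0.08, -0.30 and 0.38 in tumors, a wider range over the glands than over the tumors. Summed macrophage and epithelial markers ranked the glands in the same order as the 9 genes (M11035, M11640, M9232) but not the tumors. So did depth, with 4750989, 6127715 and 7372155 fragments on genes in these glands. The part of the markers and of depth in these differences was not tested.

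**Figure D5:**
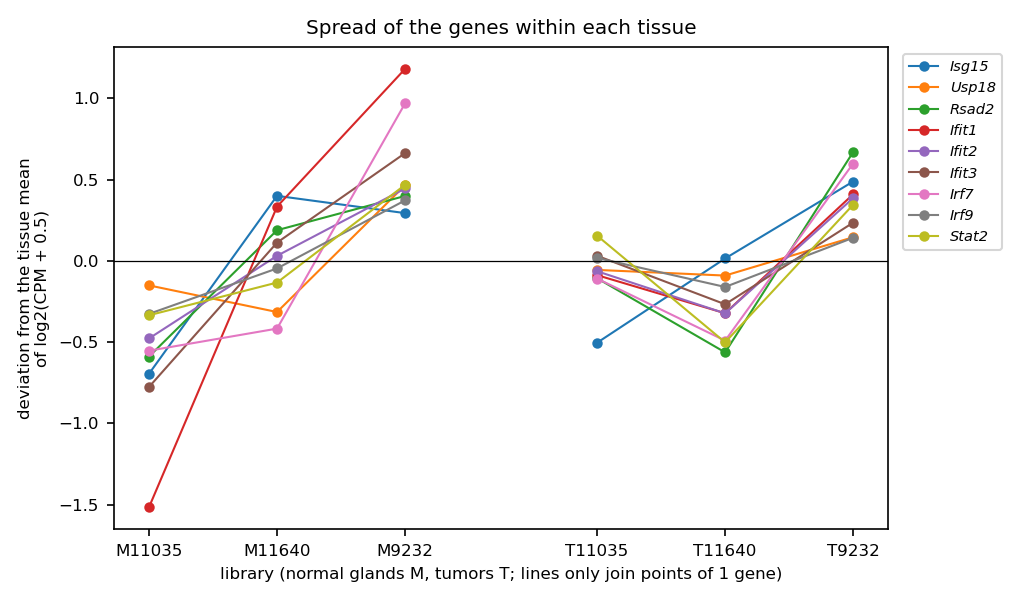
Deviation of each of the 9 genes from its mean in the tissue, on the log2(CPM + 0.5) scale, by library. M11035 is below 0 and M9232 above 0 for all 9 genes among glands, and T9232 is above 0 for all 9 among tumors.

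The genes most like the 9 in this respect were found from Pearson's r between a gene's deviations and the mean deviation of the 9 over the 6 libraries, which share their tissue means, so that few of the 6 points are free and r is a description only. Among the 11401 genes that averaged 5 CPM or more, the median r was -0.01, and 5.91% had r above 0.8. The 10 highest were Arid5b (0.998), Trim30a (0.997), Scamp2 (0.997), Iigp1 (0.996), Rab40c (0.994), Ripk1 (0.993), 2310022B05Rik (0.989), Fibp (0.987), Mkl2 (0.985) and Tbc1d9 (0.983). Trim30a is on the effector list and Iigp1, an immunity-related GTPase, on the interferon gamma list. Iigp1 had 94.9, 219 and 573 CPM in glands and 140, 109 and 261 CPM in tumors, and was not called between tissues (log2 fold change -0.53, adjusted p = 0.501, limma).

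By list, r was above 0.8 for 24 of 47 effectors (median 0.83) and 11 of 14 interferon gamma response genes (median 0.87). It was above 0.8 also for 6 of 10 macrophage markers (median 0.84) and 4 of 7 epithelial markers (median 0.84), against 0 of 8 T and NK cell markers (median -0.19) and 0 of 8 adipocyte markers (median -0.58). Genes of the interferon gamma list therefore ranked the libraries of a tissue much as the 9 genes did, although most of them were not called between tissues.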

How the data were processed

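Total RNA from 3 mammary tumors and the 3 matched adjacent glands was made into libraries with the Ovation RNA-Seq System V2 and sequenced in pairs. Per the study's methods and the submitters' processing notes, which name CASAVA 1.8.2, TopHat2 2.0.3, HTSeq 0.5.3p9 and edgeR 3.6.1, the authors mapped reads to mm9, counted fragments per RefSeq gene and removed genes with fewer than 10 fragments. The authors deposited a normalized signal per gene, in CPM on edgeR's effective library size, and totals therefore vary between columns. Fragments were recovered from the step of each column, since 100% of values came out whole (tolerance 1e-06). 0 columns were left out.

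The test was two-sided limma 3.58.1 (R 4.3.3) with the trend option and without a block, on log2(CPM + 0.5) of 15280 genes. Fold changes are on this scale, which understates those of low genes. Calls needed an adjusted p up to 0.05 and a log2 fold change of 1 or more in size. The scripts were tested on simulated data. The unit was expected to be CPM and was recorded as a signal, and the test planned for CPM was kept. Alternatives were other pseudocounts, a filter on low means, plain totals, no trend, a block for the mouse, edgeR 4.0.16 and DESeq2 1.42.0 on recovered fragments, and each library left out. edgeR called 4462 genes and limma 4309, with 4207 shared.

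Gland and tumor with the same number are from 1 animal, which pairs the libraries. The deviations of gland and tumor from their tissue means correlated with r = 0.107, 0.151 and 0.0168 (for T11035, T11640 and T9232 with their glands) over 14712 genes. Libraries within a tissue differed beyond counting noise (lowest chi-square per degree of freedom 12.4).

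The 9 genes, the lists and the tests were chosen with earlier results of these data known. By the rule for named genes, the text gives the 9 genes, up to 5 called genes with the largest rise and 5 with the largest fall per pathway list, listed ligands, the receptor genes, the 10 genes most alike within tissues, and Atf3. Other genes (uncalled members of short lists, Cmpk2, the copy of Ifit3 and single markers) were named after their values were seen, and were not followed through the alternatives. The members of these lists were compiled by hand, and 2 of them are not reported here and are left out of the counts, medians and plots of lists. Gene positions and exon lengths come from GENCODE vM1 (mm9), and transcripts were compared with BLAST 2.17.0. The authors' comparisons, miRNA arrays and cell line data were not used here.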

Additional observations from a re-analysis of the deposited data

How the results depend on the processing

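The calls of the 9 genes (7 higher, 2 not called) did not change under the 14 alternatives, in 126 of 126 gene and setting combinations. With the mouse as a replicate block, 7 of 9 were called as well and 4298 genes over the table, against 4309, and the block changed no call of the 9 genes or of the 31 others below. Over all genes the count was lowest without tumor T11640 (3774). Of 434 combinations for 31 other genes (the ligand, the receptor genes and the called genes named per list), 412 kept their direction and their call, although the adjusted p alone could cross 0.05, and 20 lost the call. Direction reversed in 2, neither past the test. Il28ra ranged from -0.12 (without gland M11035) to 0.70 on the log2 scale as libraries were left out, and Il10rb from -0.013 (without tumor T9232) to 0.35. For ISG15 conjugation the count called ranged from 0 to 1 and for the interferon gamma response from 3 to 6, each lowest without gland M11035 and without tumor T9232. The cause was not tested, beyond the smaller number of libraries. No scaling moved the median over all genes by more than 0.1. With 3 mice per tissue and 1 tumor per mouse, the standard errors of the 9 genes were 0.21 to 0.58 on the log2 scale, and levels near the floor of 3 fragments, such as those of Nos2 in glands, are imprecise.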
